A study of Mus musculus with 15 samples.

Results

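Transcripts that changed in the mouse uterus within hours of estriol (E3) were read by comparing 3 arrays of uterine RNA collected 2 hr after a single E3 injection with 3 arrays of uterine RNA from mice given saline vehicle, which makes 6 of the 15 arrays in the series. All 15 came from ovariectomized adult females of 10 or more weeks, which had rested for 10 to 14 days after surgery, and the saline and E3 arrays carry the strain label C57bl6/J and are wild type in the study's description. The E3 mice received 250 ng of E3 in 100 µl of saline intraperitoneally and uteri were taken 2 hr later. The vehicle mice received 100 µl of saline and uteri were taken 24 hr later. Arrays of E3 at 24 hr and of estradiol (E2) at 2 hr, 3 of each, were used to follow the same genes. All 15 arrays, those of E2 at 24 hr included, also entered the fit that gave the standard errors and p-values. The E2 2 hr mice, at the same dose, are labelled C57bl6/Jx129 and wild type (WT) for *Esr1*, the gene of estrogen receptor alpha. No saline array collected at 2 hr was analysed here, so the effect of E3 and the effect of the interval since injection cannot be told apart in this comparison. Ovariectomy removes the main source of circulating estrogen, and all groups share it. One source describes each uterus as homogenized and another describes pooled tissue, so p-values measure the spread between these RNA samples, which may be partly technical.

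E3 and E2 are natural estrogens that bind estrogen receptor alpha, a ligand-activated transcription factor present in the epithelium, stroma and muscle of the uterus, and E3 differs from E2 by an additional hydroxyl group. The receptor acts at estrogen response elements, through partner factors such as AP-1 and Sp1, and through rapid kinase signaling. In the uterus the early phase of the response brings immediate early transcription, water uptake and vascular permeability, and a later phase brings epithelial proliferation. E3 is known as a short-acting estrogen, which occupies nuclear receptor for less time than E2 after one injection.

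RNA was hybridized in 1 color to Agilent whole-genome 60-mer arrays. In what follows, a level is the log2 processed intensity of a probe minus the log2 75th percentile of its array, and a log2 fold change is the E3 2 hr mean minus the saline mean with its standard error (SE, n = 3 arrays per group). The spread behind each SE and p-value was estimated over all 5 groups of arrays, so it is not that of the 6 compared arrays alone. Levels of different probes are not compared. A probe was called where limma gave an unadjusted p below 0.001 and the change was at least 2-fold, and adjusted p-values are Benjamini-Hochberg values over all 34760 probes tested. The small number of arrays limits the precision. In whole-tissue RNA, fewer cells of a type and less RNA per cell cannot be told apart.

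Each array had 77.69 to 81.62% of its probes well above background. All 16 genes of a list of defining uterine transcripts (Esr1, Pgr, Hoxa10, Hoxa11 and others) were well above background on all 6 arrays, with a summed intensity of 232 to 274 times the 75th percentile on saline and 186 to 213 on E3 arrays. Transcripts of other tissues stood out on single arrays. The 34 tested genes of an exocrine pancreas list summed to 6.08 to 7.61 on the saline arrays and 6.18 on E3 replicate 1, but to 1520 on E3 replicate 2 and 29.5 on E3 replicate 3. The 52 lymphocyte genes summed to 160 on E3 replicate 3 and 103 on saline replicate 2, against 23.6 to 60.6 on the others. Of the pancreas list only *Klk1* was called, at 7.33, of the lymphocyte list none, and the genes of both lists were left out of the description below, apart from *Lef1* (-0.53) and *Tcf7* (0.26), which the Wnt list also holds and which were not called. The 47 liver genes summed to 68.7 on saline replicate 1 and to between 19.6 and 33.6 on the other arrays. Of these genes 43 lay below 0 with a median of -1.59, and *Plg* (-1.96), *Apoa2* (-2.00) and *Apoh* (-1.90) were called lower, none of them in every fit that left out an array or with slide as a block. With the probes of all other-tissue marker lists left out, 4731 probes were called in the comparison below, 1676 higher and 3055 lower, against 4746 with them. All 3 E3 arrays and saline replicate 3 lay on one slide, and saline replicates 1 and 2 on another.

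**Figure D1:**
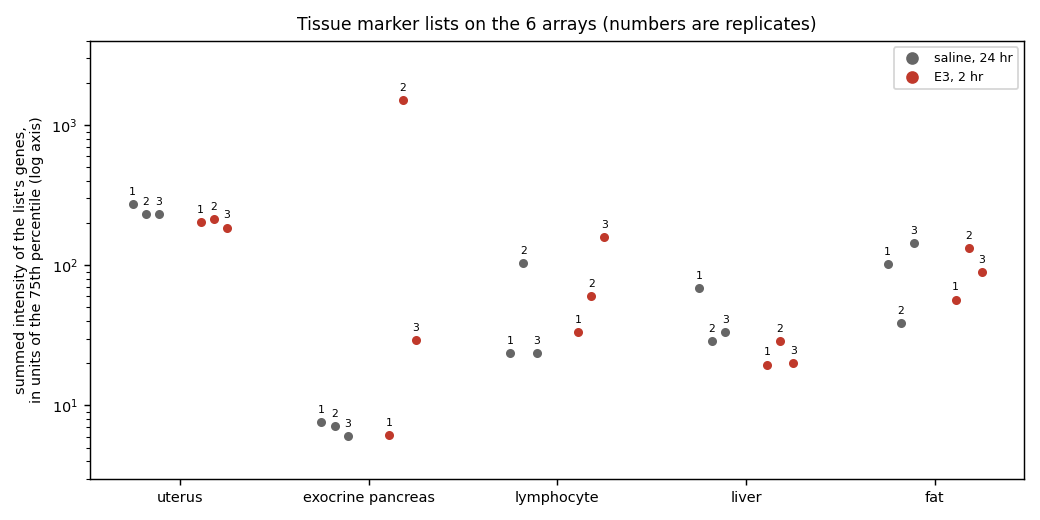
Summed intensity of the genes on 5 tissue marker lists, in units of each array's 75th percentile on a log axis, with a point per array (grey, saline; red, E3 2 hr) and its replicate number. Uterine markers lie between 186 and 274 on all 6 arrays, and pancreas markers reach 1520 on E3 replicate 2 against 6.08 to 7.61 on saline.

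Uterine transcripts differed in both directions between E3 at 2 hr and saline, with more probes lower than higher and the largest differences among the higher ones. Of 34760 probes tested, 4746 (13.7%) were called, 1679 (4.83%) higher and 3067 (8.82%) lower. With 1 probe per gene, the brightest, 864 of 18290 genes (4.72%) were higher and 1330 (7.27%) lower, and the median log2 fold change over all tested genes was -0.08. The median change of the called probes was 1.53 among those higher and -1.47 among those lower. A change of 8-fold or more was reached by 189 higher and 153 lower probes. The E3 and saline values did not overlap for 57.6% of the tested probes and for 4718 of the 4746 called ones. Leaving out each of the 6 arrays in turn kept 3760 of the 4746 calls, 1372 higher and 2388 lower. With slide as a fixed block, where the comparison rests mainly on saline replicate 3, 1411 of the higher and 2334 of the lower calls were made again in the same direction. Without E3 replicates 2 and 3 together there were 4029 calls, and among the genes then not called were *Cdkn1b* (-0.96), *Cdk6* (-1.08), *Il15* (-1.93), *Mmp11* (-1.16), *Has2* (-2.31), *Tsc22d3* (-1.15), *Vegfc* (-0.73), *Hey2* (-0.87) and *Btc* (-1.01).

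**Figure D2:**
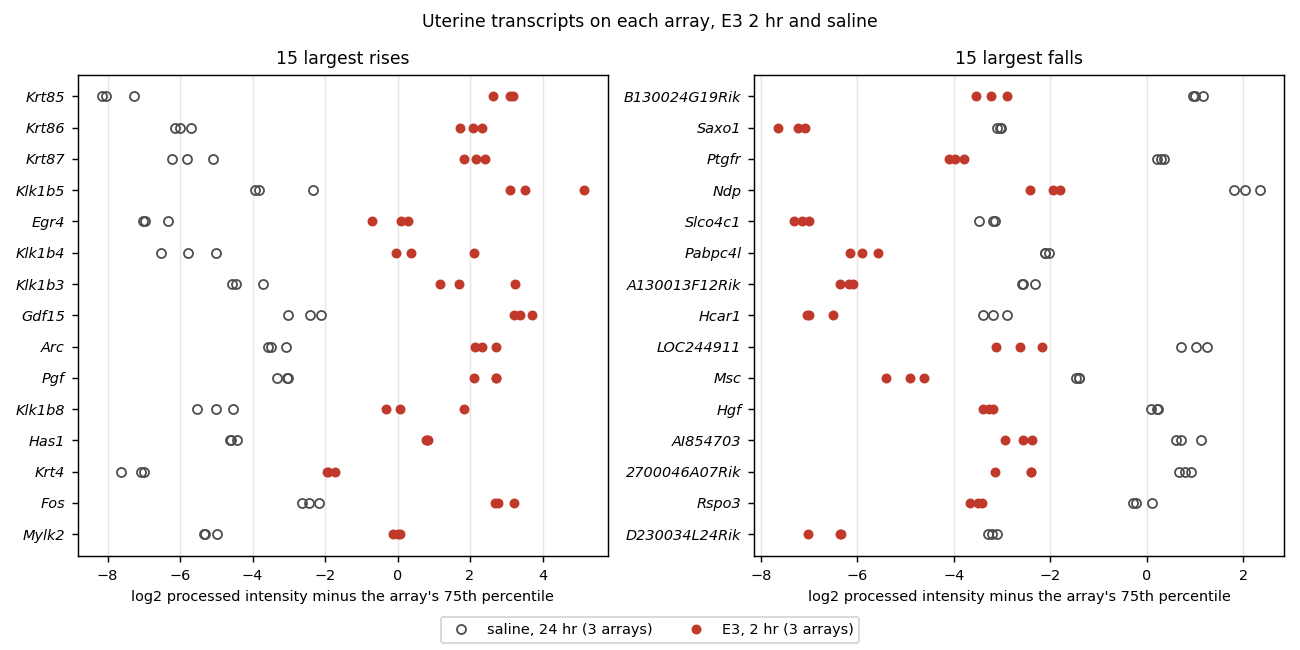
Levels of the 15 genes with the largest rises (left) and the 15 with the largest falls (right) on each saline array (open grey points) and each E3 2 hr array (red points), as log2 processed intensity minus the array's 75th percentile. The E3 and saline points do not overlap for any of the 30 genes, which the rule for choosing them required. Of all tested probes 57.6% do not overlap.

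The largest rises belonged to hair keratins, glandular kallikreins, immediate early genes and secreted factors. *Krt85*, *Krt86* and *Krt87* encode hard keratins of the hair shaft, and their probes lie close together at chr15:101419766-101502781 (mouse build mm7, the build of the array annotation). *Krt85* stood at -8.16, -7.26 and -8.04 on saline replicates 1 to 3 and at 3.1, 3.18 and 2.64 on E3 replicates 1 to 3. The groups did not overlap, which the rule for choosing the gene required. The saline values sat near the detection limit, with 2 of 3 saline arrays well above background. Its log2 fold change was 10.80 ± 0.45 (limma, adjusted p = 1.19e-08). *Krt86* moved from -6.01, -5.70 and -6.14 to 2.07, 2.32 and 1.73, a 254-fold rise, and *Krt87* rose 229-fold. Near-identical hair keratins can share probe sequence, so the shares of the 3 genes are uncertain. On a list of other hair and skin markers none of 16 tested genes was called higher and 2 were called lower, while with slide as a block 2 were called higher and 2 lower. *Krt4*, a keratin of stratified epithelia, rose 41.1-fold, from -7.00, -7.07 and -7.62 to -1.92, -1.72 and -1.95.

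*Klk1b5*, *Klk1b4*, *Klk1b3* and *Klk1b8* encode secreted serine proteases of the glandular kallikrein cluster, their probes lie at chr7:40128083-40394542 (mm7), and all 4 rose. *Klk1b5* stood at -3.83, -2.33 and -3.93 on saline and at 3.52, 5.14 and 3.1 on E3, a change of 7.28 ± 0.73 (adjusted p = 5.88e-06). E3 replicate 2, the array with pancreas transcripts, was the highest for each of the 4 genes, and E3 replicate 1, whose pancreas sum lay within the saline range, was also above every saline array. Without E3 replicates 2 and 3 the changes were 6.88 for *Klk1b5*, 6.13 for *Klk1b4*, 5.92 for *Klk1b3* and 5.10 for *Klk1b8*. These paralogs are alike in sequence and were not separated further.

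Secreted and enzyme genes made up most of the other large rises. *Gdf15*, a stress-induced cytokine of the TGF-beta superfamily, stood at -2.42, -2.12 and -3.02 on saline and at 3.70, 3.37 and 3.22 on E3, a 61.8-fold rise. *Pgf*, placental growth factor of the VEGF family, went from -3.04, -3.01 and -3.32 to 2.71, 2.71 and 2.10, a change of 5.63 ± 0.34. *Has1*, a plasma membrane synthase of hyaluronan, went from -4.60, -4.42 and -4.61 to 0.81, 0.79 and 0.84. The 3 E3 arrays lay close together for *Has1*, whose change was 5.36 ± 0.22 (limma, adjusted p = 1.13e-08), although a dimmer probe gave 0.95 and was not called. *Arc*, an activity-regulated cytoskeletal gene best known in neurons, rose 54.6-fold. *Mylk2*, the skeletal muscle form of myosin light chain kinase, rose 37-fold, from -4.99, -5.32 and -5.35 to 0.07, 0.01 and -0.12.

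Further genes were not measurable in the saline group and are given as lower bounds, set against the lowest signal that counted as well above background. *Trim15*, a tripartite motif protein, was at least 141-fold higher, with levels of -0.74, -1.22 and -0.76 on the E3 arrays. *Otop1*, a proton channel, was at least 16-fold higher, *Gad2*, a GABA-synthesizing enzyme, at least 12.5-fold, *Myo15b*, an unconventional myosin, at least 12.4-fold, and *Myh6*, cardiac alpha myosin heavy chain, at least 10.5-fold. In all, 108 of the higher probes were not well above background on any saline array.

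**Figure D3:**
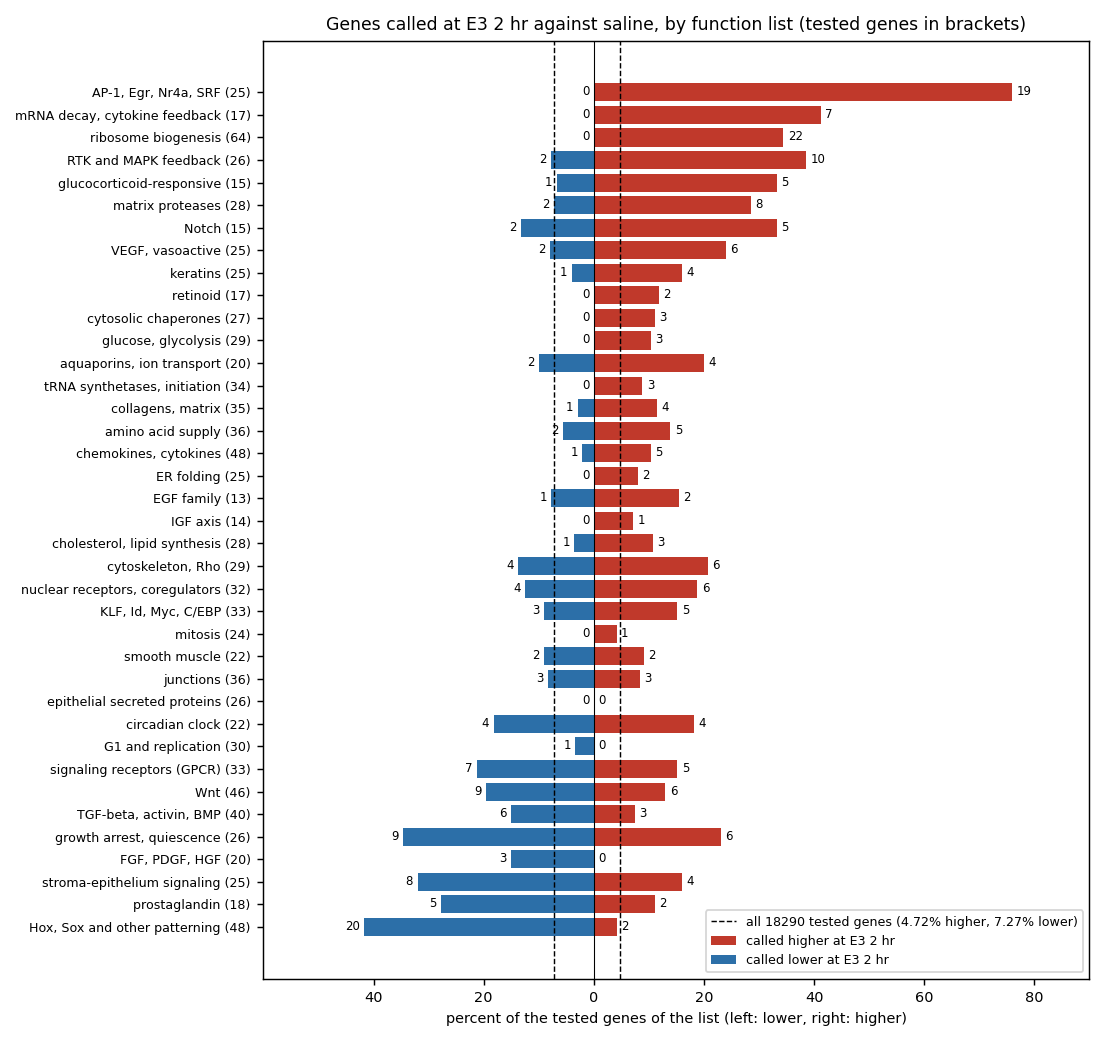
Percent of the tested genes of each function list that were called higher (red, right) or lower (blue, left) at E3 2 hr, with the number of genes at each bar and the tested genes of the list in brackets. Dashed lines mark the shares among all 18290 tested genes (4.72% higher, 7.27% lower).

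Immediate early transcription factors were called higher in most cases. Of 25 genes on a list of AP-1, Egr, Nr4a and SRF factors, 19 (76%) were called higher and none lower, against 4.72% and 7.27% of all genes. The list median was 2.20 against -0.08 over all genes. All 19 calls held without each array in turn. *Fos*, the AP-1 subunit, stood at -2.63, -2.45 and -2.17 on saline and at 3.22, 2.78 and 2.68 on E3, a 39.7-fold rise (5.31 ± 0.23, limma, adjusted p = 1.41e-08). *Egr4*, a zinc finger factor, went from -7.02, -6.33 and -6.98 to 0.08, 0.30 and -0.70, or 102-fold. No E3 value overlapped a saline value for either gene, which the rule for choosing the largest rises required. *Fosl1* rose by 4.31 and *Egr3* by 4.11, while *Egr1* (2.57), *Fosb* (2.42) and *Junb* (2.20) rose less. *Nr4a1*, an orphan nuclear receptor, went from 1.60, 1.5 and 1.60 to 5.36, 5.26 and 4.85. The small early proteins *Ier3* and *Ier2* rose by 2.64 ± 0.10 and 2.54 ± 0.11. *Srf* encodes the factor that binds the CArG boxes of many early genes, and it rose by 1.42 ± 0.25, from 3.29, 2.99 and 3.16 to 4.77, 4.63 and 4.30, a change no longer called with slide as a block. *Jun* (0.78) and *Egr2* (1.65, adjusted p = 0.0101) did not pass the call, and *Nr4a3* passed it without being above background on any array.

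Genes that feed back on receptor tyrosine kinase and MAP kinase signaling were called higher in 10 of 26 cases (38.5%) and lower in 2 (7.69%). The shares over all genes were 4.72% and 7.27%, and the list median was 0.05. *Errfi1* (Mig6), an inhibitor of the EGF receptor that is itself needed to restrain uterine epithelial growth, stood at 1.66, 1.80 and 1.72 on saline and at 4.97, 5 and 5.05 on E3. This change of 3.28 ± 0.17 left a gap between the groups far wider than the spread within either. *Rasd1*, a Ras-related GTPase, rose by 3.13 ± 0.12, and the MAP kinase phosphatases *Dusp8* (2.46), *Dusp1* (2.38) and *Dusp6* (1.19) rose with it. *Spry4* rose by 3.06 whereas *Spry1* (-0.90) and *Dusp4* (-0.23) were not called. *Rgs2*, which shortens signaling by Gq-coupled receptors, fell by 2.31 ± 0.20 on the log2 scale, from 5.68, 5.51 and 5.53 to 3.24, 3.22 and 3.35. *Spry3* was called lower but was below background on every array.

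Cytokine feedback and mRNA decay genes were called higher in 7 of 17 cases (41.2%) and lower in none (median 0.79), against 4.72% and 7.27% of all genes. *Socs1*, an inhibitor of JAK-STAT signaling, went from 0.76, 1.13 and 0.67 to 4.47, 4.41 and 4.17, and *Socs3* rose by 3.22 and *Socs2* by 1.86. *Tob1*, an antiproliferative adaptor of the deadenylase complex, rose by 2.39 ± 0.12. *Zfp36*, which directs decay of AU-rich transcripts, rose by 2.26. Of 48 genes on a chemokine and cytokine list 5 (10.4%) were higher and 1 (2.08%) lower, the latter below the share over all genes. *Il11*, needed for decidualization, rose by 3.1 ± 0.20, *Ackr3*, a scavenging chemokine receptor, by 2.29 ± 0.17, and *Stat5a*, a transducer of cytokine signals, by 2.17 ± 0.24. *Il15*, a growth factor of natural killer cells, fell by 1.87 ± 0.33.

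Promoters of 4 of the genes that rose are printed here to show a CREB or SRF recognition sequence just before the start, and were picked for holding one. The sequences are the 250 bases before the annotated transcription start in RefSeq (GRCm38.p6), 5′ to 3′ on the gene's strand, with the motif in capitals. *Has1* at chr17:17855189-17855438 (minus strand), *Errfi1* at chr4:150854820-150855069 (plus strand) and *Maff* at chr15:79347270-79347519 (plus strand), a small Maf factor that rose by 2.20, hold the palindromic cyclic AMP response element TGACGTCA. *Srf* at chr17:46556163-46556412 (minus strand) holds a pair of CArG boxes.
Has1: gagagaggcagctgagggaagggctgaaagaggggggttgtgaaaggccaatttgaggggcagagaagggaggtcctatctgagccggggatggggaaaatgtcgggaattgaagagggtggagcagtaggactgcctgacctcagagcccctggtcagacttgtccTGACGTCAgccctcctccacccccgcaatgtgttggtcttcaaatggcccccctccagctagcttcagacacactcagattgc
Errfi1: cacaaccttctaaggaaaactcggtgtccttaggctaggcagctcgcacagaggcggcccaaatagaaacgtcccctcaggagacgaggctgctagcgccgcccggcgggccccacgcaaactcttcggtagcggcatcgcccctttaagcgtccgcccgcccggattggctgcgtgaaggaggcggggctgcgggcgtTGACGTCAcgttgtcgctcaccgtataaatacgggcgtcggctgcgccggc
Maff: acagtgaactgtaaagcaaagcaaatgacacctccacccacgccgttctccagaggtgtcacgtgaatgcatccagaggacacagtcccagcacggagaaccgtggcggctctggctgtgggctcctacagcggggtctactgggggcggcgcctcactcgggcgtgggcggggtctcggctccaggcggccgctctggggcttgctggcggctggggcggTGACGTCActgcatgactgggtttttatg
Srf: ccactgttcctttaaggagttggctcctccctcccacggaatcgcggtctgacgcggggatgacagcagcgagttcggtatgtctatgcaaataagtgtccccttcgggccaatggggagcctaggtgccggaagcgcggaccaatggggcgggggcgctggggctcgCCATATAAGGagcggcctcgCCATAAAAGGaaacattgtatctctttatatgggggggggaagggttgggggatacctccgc
The element began 83 bases before the start in *Has1*, 51 in *Errfi1* and 29 in *Maff*, and the *Srf* boxes 82 and 62 bases before it. With marker genes of other tissues left out of the called genes, 863 were higher, and 640 of these had a promoter window. TGACGTCA was held on either strand by 5% of the 640, compared with 1.51% of 861 genes called lower. The shares were 3.05% of 13543 tested genes and 2.03% of all 27025 genes with a window. The AP-1 letters TGACTCA were held by 4.69% of higher, 5.69% of lower and 5.04% of tested genes. The palindromic estrogen response element (GGTCA, any 3 bases, then TGACC) was held by 1 of the 640 higher genes (0.156%), none of the lower and 0.0517% of tested genes. CArG boxes were in 1.56% of higher and 1.62% of tested genes, and in 2 of the 20 AP-1, Egr, Nr4a and SRF genes with a window (10%). These windows do not cover distal enhancers, and a match is a description of the letters only.

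Regulators of cell growth and arrest were called in both directions. Of 26 genes on a list of growth arrest and quiescence, 6 (23.1%) were higher and 9 (34.6%) lower, against 4.72% and 7.27% of all genes. The list median was -0.34. *Gadd45g*, a stress and growth arrest gene, stood at 3.01, 2.97 and 2.72 on saline and at 6.46, 6.75 and 6.62 on E3, a change of 3.71 ± 0.10 (limma, adjusted p = 4.88e-10). *Cdkn1a*, the p21 inhibitor of cyclin-dependent kinases, went from -1.52, -1.71 and -1.64 to 1.42, 1.44 and 1.38, and *Plk2*, a polo-like kinase induced by stress, rose by 3.32 ± 0.22. The E3 values of *Cdkn1a* lay close together and far above the saline values. The lower members included *Sesn1*, a sestrin that restrains mTORC1, which went from 3.55, 3.40 and 3.33 to 1.43, 1.44 and 1.42. *Pik3ip1*, an inhibitor of PI3 kinase, fell by 2.45, *Txnip*, which limits glucose uptake, by 1.79, *Arrdc3*, an arrestin domain protein, by 1.61 ± 0.14, and *Ccng2*, a cyclin of resting cells, by 1.49. *Cdkn1b*, the p27 inhibitor, fell by 1.05 ± 0.09.

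**Figure D4:**
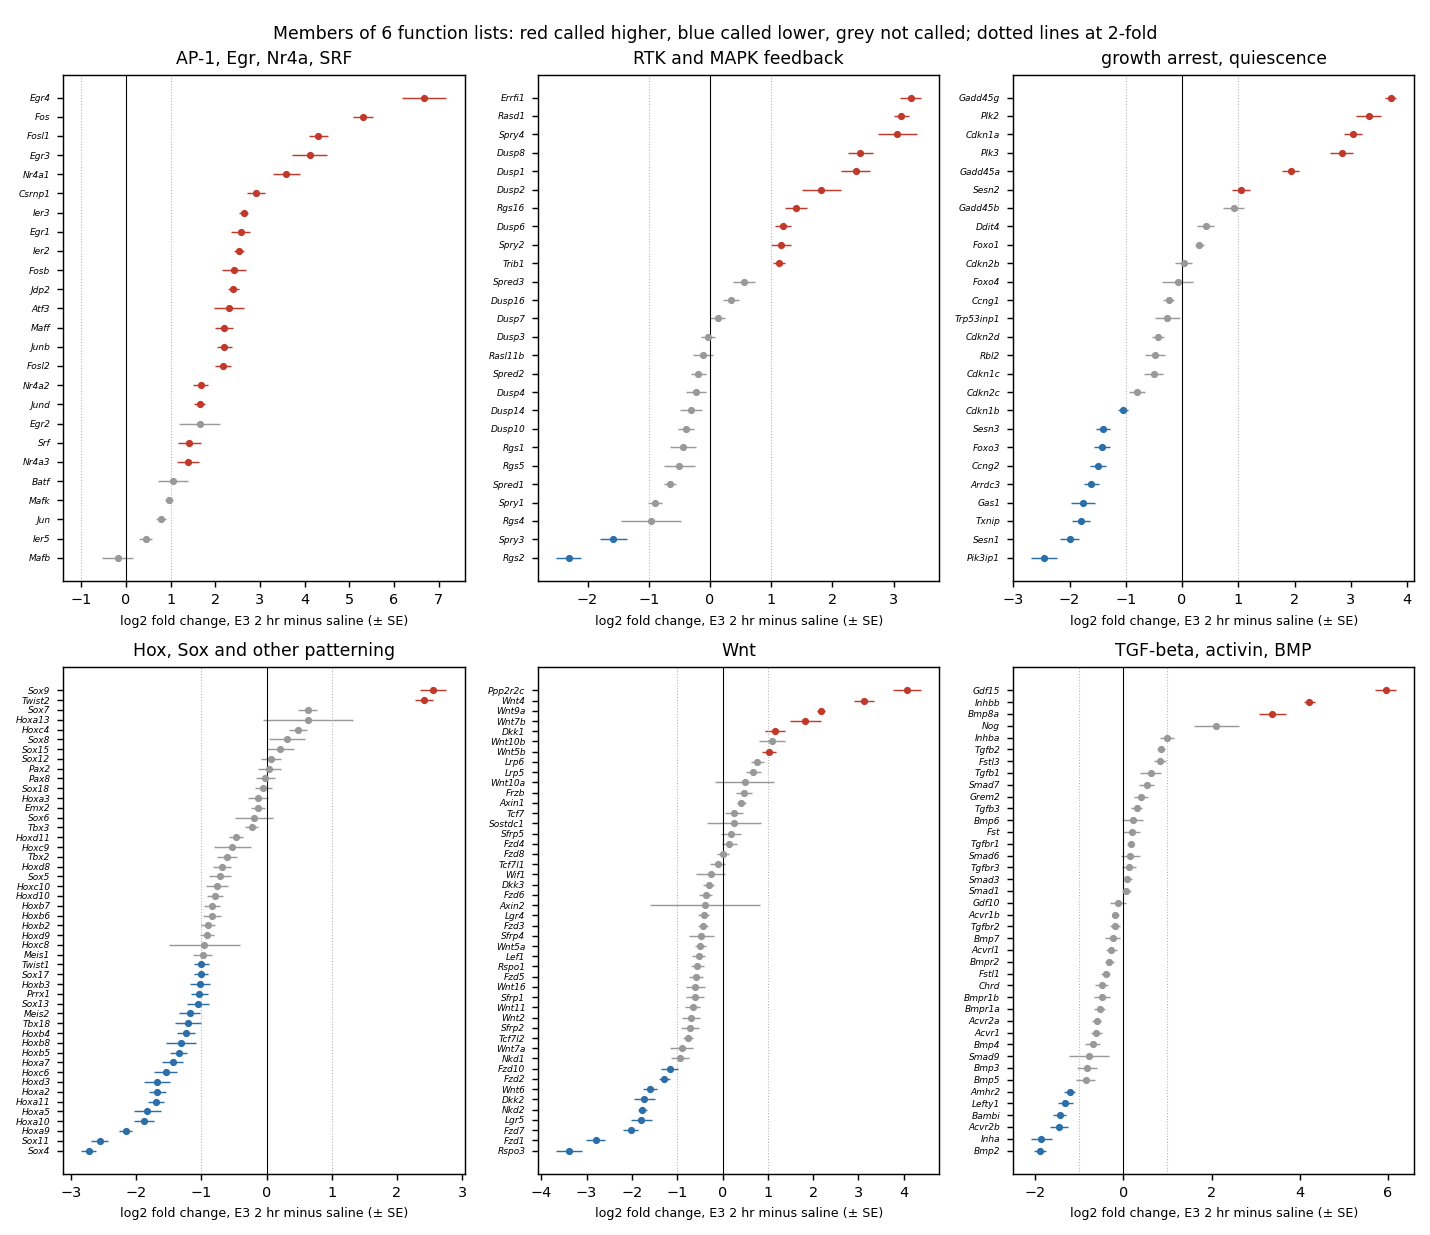
Log2 fold change (E3 2 hr minus saline, bars ± SE) of every tested member of 6 function lists, colored red where called higher, blue where called lower and grey where not called, with dotted lines at 2-fold. The AP-1 panel lies almost wholly above 0, the Hox and Sox panel mostly below 0, and the other panels hold calls on both sides.

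Of 64 ribosome assembly genes 22 (34.4%) were called higher and none lower, against 4.72% higher over all genes, 62 lay above 0 and the median change was 0.78. *Bysl*, a factor of small-subunit assembly, went from 0.09, 0.18 and -0.09 to 2.02, 2.01 and 2.04. *Rrs1*, a large-subunit assembly factor, rose by 1.63 ± 0.09 and *Gnl3* (nucleostemin) by 1.64 ± 0.09. An E-box CACGTG, the core site of Myc, stood before 14 of the 56 genes of this list that had a window (25%), against 10.5% of all tested genes. The *Myc* probe chosen as brightest changed by 0.96 and was not called. Among amino acid supply genes 5 of 36 were higher (13.9%) and 2 lower (5.56%). *Slc7a5*, the light chain of a leucine transporter, rose by 2.71 ± 0.10, *Atf4*, the transcription factor of the amino acid response, by 2.13 ± 0.10, and *Srm*, spermidine synthase, by 1.58 ± 0.12. For translation factors and tRNA synthetases (3 of 34 higher, 8.82%) *Eif2s2* led with 1.32 ± 0.07, and for cytosolic chaperones (3 of 27 higher, 11.1%) *Hsph1* with 1.57 ± 0.19. *Slc16a1*, a lactate transporter, rose by 2.11 ± 0.17 and *Hk2*, hexokinase of the glycolytic entry step, by 1.76 ± 0.23, among 3 of 29 glycolysis genes higher (10.3%).

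Cell division genes were called at shares near or below those of all genes. None of 30 genes of G1 and DNA replication was called higher and 1 (3.33%), *Cdk6*, lower (-1.24 ± 0.16), and of 24 mitotic genes only *Mad2l1* was called (4.17%), against 4.72% higher and 7.27% lower over all genes. *Mad2l1*, a spindle checkpoint protein, stood at -1.19, -0.86 and -1.23 on saline and at 3.32, 3.35 and 3.16 on E3, a change of 4.37 ± 0.16 that both of its probes gave. Of the 24 mitotic genes, 23 lay above 0 with a median of 0.76. *Mki67*, a marker of cycling cells, stood at 0.74, 1.96 and 0.54 on saline and at 1.19, 1.66 and 2.94 on E3, with overlapping groups and the highest values on saline replicate 2 and E3 replicate 3, the arrays with the highest lymphocyte sums. The part of lymphocyte transcripts in that median was not tested.

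Secreted signals of the Wnt, TGF-beta, EGF, FGF and Notch families changed member by member. Of 46 Wnt genes 6 (13%) were higher and 9 (19.6%) lower, against 4.72% and 7.27% of all genes. The list median was -0.42. *Wnt4*, a Wnt ligand required for decidualization, went from 0.19, -0.43 and -0.12 to 3.08, 3.07 and 2.86, *Wnt9a* rose by 2.17 ± 0.09, and *Ppp2r2c*, a regulatory subunit of protein phosphatase 2A, by 4.07 ± 0.32. Several receptors and modulators fell. *Fzd1*, a Frizzled receptor, went from 2.84, 2.81 and 2.99 to 0.26, 0.00 and -0.02, and *Fzd7* fell by 2.03 ± 0.17. *Rspo3*, an R-spondin that amplifies Wnt signals, went from -0.29, -0.22 and 0.11 to -3.42, -3.66 and -3.49. *Lgr5*, an R-spondin receptor, fell by 1.79, and the antagonists *Nkd2* and *Dkk2* by 1.77 and 1.73.

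In the TGF-beta, activin and BMP list 3 of 40 genes were higher (7.5%) and 6 lower (15%), with a median of -0.18, against 4.72% and 7.27% over all genes. *Inhbb*, the activin beta B subunit, stood at 1.93, 1.62 and 1.79 on saline and at 5.94, 6.05 and 6 on E3, a change of 4.22 ± 0.13 (limma, adjusted p = 1.83e-09). *Inha*, the alpha subunit with which it forms inhibin, fell by 1.86 ± 0.23. *Bmp8a* rose by 3.38 ± 0.30, whereas *Bmp2*, an inducer of decidualization, fell by 1.90 ± 0.13 and the pseudoreceptor *Bambi* by 1.45 ± 0.15. Of 13 EGF family genes 2 were higher (15.4%) and 1 lower (7.69%). The ligands *Hbegf* and *Nrg1* rose by 2.79 ± 0.15 and 1.88 ± 0.20, and the ligand *Btc* fell by 1.16 ± 0.21, a call lost when an array was left out and with slide as a block. *Igf1*, the classical estrogen-induced growth factor of uterine stroma, rose by 1.15 ± 0.11 on its brightest probe and by up to 3.15 on another. No FGF or PDGF family gene was called higher and 3 of 20 on that list (15%) were lower. *Hgf*, hepatocyte growth factor of the stroma, went from 0.20, 0.23 and 0.08 to -3.27, -3.40 and -3.19, and all 4 of its probes were lower. *Fgf18* fell by 1.78 ± 0.20 and *Fgf10* by 1.22 ± 0.20. In the Notch list 5 of 15 genes were higher and 2 lower (33.3% and 13.3%), among them *Hey1* (1.71 ± 0.15) and *Nrarp* (1.20 ± 0.17), both target genes, and *Dll1* (1.17 ± 0.12), a ligand, against a fall of 1.69 ± 0.15 for *Jag1*, another ligand. The calls of *Heyl* (1.11), *Hes1* (1.04) and *Hey2* (-1.09) were lost when an array was left out, and that of *Hes1* also with slide as a block.

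Genes of water movement and vessels included several large rises. *Aqp5*, a water channel of glandular epithelium, went from 0.30, 0.18 and -0.24 to 4.26, 4.23 and 4.07, and *Aqp8* from -2.08, -3.45 and -3.31 to 2.11, 1.89 and 1.61. Both gaps exceeded the spread within the groups, with changes of 4.11 ± 0.20 and 4.81 ± 0.30. *Aqp11* fell by 2.10 ± 0.16. Of 20 aquaporin and ion transport genes 4 (20%) were higher and 2 (10%) lower, against 4.72% and 7.27% of all genes. *Vegfa*, the main vascular permeability factor, stood at 1.60, 1.40 and 1.46 on saline and at 4.26, 4.28 and 3.96 on E3. All 3 of its probes rose, by 2.10 to 3.02. *Adm*, the vasodilator adrenomedullin, rose by 1.95 ± 0.12 and *Apln*, apelin, by 1.92, while the apelin receptor *Aplnr* fell by 1.76 ± 0.12. *Vegfc* was called lower at -1.02 ± 0.15, and not without E3 replicate 2 (-0.98), E3 replicate 3 (-0.91) or saline replicate 3 (-0.99). Of 25 angiogenic and vasoactive genes 6 (24%) were higher and 2 (8%) lower, the latter near the 7.27% over all genes.

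Matrix proteases were higher in 8 of 28 cases (28.6%) and lower in 2 (7.14%), against 4.72% and 7.27% of all genes. *Adamts4*, an aggrecanase, went from -1.69, -2.23 and -2.74 to 2.86, 2.63 and 2.66, and *Adamts1*, a related protease required for female fertility, rose by 2.60 ± 0.21. *Plaur*, the urokinase receptor, rose by 2.53 and *Mmp19* by 1.72 ± 0.12. *Mmp11* fell by 1.41 ± 0.20 and *Adamts5* by 1.13 ± 0.15. The hyaluronan synthases moved apart, since *Has2* fell by 2.20 ± 0.40 while *Has1* rose. *Has2* stood at -0.77, -0.74 and -0.58 on saline and at -3.01, -3.10 and -2.56 on E3. In epithelial junctions, *Cldn1*, a tight junction claudin, fell from -0.48, -0.66 and -0.67 to -3.76, -3.67 and -4.22 and *Cldn8* fell by 1.98 ± 0.20, whereas *Gjb2* (connexin 26) rose by 2.12 ± 0.16 and the desmosomal cadherin *Dsc2* by 2.25 ± 0.28. *Rnd1*, a small GTPase that loosens adhesion, rose by 4.22 ± 0.28.

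Hormone receptors and their partners were higher in 6 of 32 cases (18.8%) and lower in 4 (12.5%), against 4.72% and 7.27% of all genes. *Greb1*, an estrogen-induced coregulator of the receptor, stood at -1.24, -1.29 and -1.43 on saline and at 2.45, 2.43 and 2.35 on E3. *Pgr*, the progesterone receptor, rose by 2.13 ± 0.11 on its brightest probe, from -1.84, -2.10 and -1.84 to 0.26, 0.25 and 0.11, and by 4.44 on the other. *Nrip1* (RIP140), a corepressor, rose by 2.22 ± 0.12 and *Pparg*, a fatty acid-sensing receptor, by 3.05. *Nr2f2* (COUP-TFII), which mediates stromal progesterone signals, fell from 4.11, 3.87 and 4.03 to 2.36, 2.04 and 2.11, and *Thra*, the thyroid hormone receptor alpha, fell by 1.87 ± 0.17. *Esr1*, the estrogen receptor itself, changed by -0.51 and was not called. Retinoid handling genes *Lrat* (3.11 ± 0.31) and *Aldh1a2* (1.60 ± 0.17) rose, the 2 of 17 on that list called higher (11.8%).

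The called prostaglandin genes were synthesis and transport genes among those higher, and receptors and a breakdown enzyme among those lower. *Ptges*, the inducible PGE2 synthase, went from -2.16, -2.43 and -2.02 to 1.47, 1.58 and 1.16, and *Slco2a1*, the prostaglandin transporter, rose by 1.36 ± 0.16. *Ptgfr*, the receptor of PGF2-alpha that drives myometrial contraction, went from 0.30, 0.22 and 0.36 to -4.09, -3.97 and -3.79. Its fall of 4.24 ± 0.23 (limma, adjusted p = 7.57e-08) was matched by its other probe (-3.89). *Hpgd*, which inactivates prostaglandins, fell by 2.32 ± 0.24 and the PGE2 receptor *Ptger4* by 1.57 ± 0.11. On this list 2 of 18 genes (11.1%) were higher and 5 (27.8%) lower, against 4.72% and 7.27% of all genes. *Ptgs2*, the inducible cyclooxygenase, stood at -5.70, -5.70 and -6.00 on saline and at -5.73, -5.96 and -5.35 on E3 with overlapping groups.

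Among other signaling receptors 5 of 33 (15.2%) were higher and 7 (21.2%) lower. *Oxtr*, the oxytocin receptor of the myometrium, went from -3.82, -4.12 and -3.56 to 0.36, -0.10 and -0.01. The nucleotide receptors *P2ry14* and *P2ry2* rose by 3.38 ± 0.14 and 3.22 ± 0.17. *Lpar3*, a lysophosphatidic acid receptor required for embryo spacing, fell by 1.93 ± 0.13, and *Gper1*, a membrane receptor that has been linked to estrogen, went from -0.54, -1.07 and -0.85 to -2.98, -2.97 and -3.41. In smooth muscle genes (2 of 22 higher and 2 lower, 9.09% each, against 4.72% and 7.27% over all genes) *Cacna1h*, a T-type calcium channel subunit, rose by 2.36 ± 0.18 and phospholamban *Pln* fell by 2.05 ± 0.25.

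Of the function lists, the one of developmental transcription factors had the highest share of genes called lower. Of 48 tested Hox, Sox and other patterning genes, 20 (41.7%) were called lower, against 7.27% of all genes, and 2 higher, with a median of -0.87. *Sox4*, a high-mobility-group factor, stood at 2.04, 1.93 and 2.04 on saline and at -0.77, -0.71 and -0.70 on E3, a fall of 2.73 ± 0.11 (limma, adjusted p = 1.1e-08). *Hoxa9* went from 1.35, 1.45 and 1.47 to -0.70, -0.80 and -0.73. *Hoxa10* and *Hoxa11*, both needed for uterine identity and implantation, fell by 1.88 ± 0.15 and 1.70 ± 0.12. The groups did not overlap for these 4 genes, which also held for 57.6% of all tested probes. In all 12 genes of the Hox clusters were called lower and none higher. Calls of 5 of the 20 lower genes, with changes between -1.05 and -1, were lost when an array was left out. *Sox11* fell by 2.56 ± 0.13 on its brightest probe while 4 dimmer probes were called higher. *Sox9*, a factor of the glandular epithelium, rose by 2.55 ± 0.20 and *Twist2*, a mesenchymal factor, by 2.41 ± 0.13.

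A list of genes that carry signals between uterine stroma and epithelium gave 8 of 25 lower (32%) and 4 higher (16%). The shares over all genes were 7.27% and 4.72%. *Ptch1*, a receptor and target of hedgehog, went from -2.07, -2.23 and -1.97 to -4.85, -5.20 and -4.94, a fall of 2.91 ± 0.25. *Ihh*, the hedgehog ligand of the epithelium, rose by 1.37 ± 0.20 and *Gja1* (connexin 43) by 1.11 ± 0.15. *Gli1*, another hedgehog target, changed by -0.31 and was not called. *Hand2*, a stromal factor that restrains epithelial growth, fell by 1.51 ± 0.15.

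Single genes with the largest falls came from varied functions, and several carry only a clone name. *Ndp*, norrin, a ligand of Frizzled-4, went from 2.35, 1.80 and 2.03 to -1.80, -1.94 and -2.42. *Saxo1*, a microtubule-stabilizing protein of cilia, fell 19.2-fold, *Slco4c1*, an organic anion transporter, 14.8-fold, and *Pabpc4l*, a poly(A)-binding protein relative, 13.9-fold. *Hcar1*, the lactate receptor, went from -3.19, -3.40 and -2.89 to -7.05, -6.51 and -7.00. *Msc*, musculin, a repressor of the helix-loop-helix family, fell 11.7-fold. The clone-named transcripts *B130024G19Rik*, *A130013F12Rik*, *LOC244911*, *AI854703*, *2700046A07Rik* and *D230034L24Rik* fell by between 10.3-fold and 19.2-fold. *B130024G19Rik* went from 0.96, 1.00 and 1.16 to -2.90, -3.22 and -3.54. Among the genes not measurable after E3, *6430590A10Rik* was at least 11.1-fold lower, *2900017F05Rik* at least 9.92-fold, *Jakmip2*, a Janus kinase-interacting protein, at least 8.41-fold, *D230040N21Rik* at least 7.75-fold and *A630012P03Rik* at least 7.01-fold. A dimmer *Jakmip2* probe changed by -0.64 and was not called. In all, 388 lower probes were not well above background on any E3 array.

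Clock genes were called in both directions. Of 22 circadian genes 4 (18.2%) were higher and 4 (18.2%) lower, against 4.72% and 7.27% of all genes. *Nfil3*, a repressor of clock output, went from 0.55, 0.87 and 0.86 to 3.15, 3.11 and 3.18, *Bhlhe40* rose by 1.83 ± 0.15, and *Cry2* by 1.13 ± 0.16. *Nr1d1*, *Dbp* and *Per3*, whose levels cycle over the day, fell by 1.35 ± 0.16, 1.39 ± 0.18 and 1.29 ± 0.17. *Cry2* (0.99) and *Dbp* (-1.22) were not called with slide as a block. *Arntl* (0.21) and *Clock* were not called. Hour of day at collection was not given in the sources used here, and its part in these values cannot be told apart from that of E3. Glucocorticoid-responsive genes were higher in 5 of 15 cases (33.3%) and lower in 1 (6.67%), with *Sgk1* at 2.45 ± 0.17 and *Tsc22d3* (GILZ) at -1.31 ± 0.20. Those higher include *Errfi1*, *Cdkn1a* and *Dusp1*, described above with other lists. *Fkbp5* (0.44), *Klf9* (-0.23), *Mt1* (0.14) and *Mt2* (0.33) were not called.

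The study followed some transcripts by PCR, taken from earlier work on estradiol and from arrays of other compounds, and they were listed here with results of these data known. Of 17 such transcripts 11 (64.7%) were called higher and none lower, against 4.72% and 7.27% of all genes. Besides *Fos*, *Nr4a1*, *Gadd45g*, *Cdkn1a*, *Errfi1*, *Wnt4*, *Inhbb*, *Mad2l1*, *Ppp2r2c* and *Stat5a*, *Ccn1* (Cyr61), a matricellular protein, rose by 4.24. The other 6 were not called, with changes of 0.67 for *Per1*, 0.41 for *Axin1*, 0.31 for *Sox8*, 0.06 for *Mvp*, 0.05 for *Tnxb* and -0.13 for *Gna12*.

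The E3 arrays of 24 hr show where the same genes stood a day after the injection. Between the E3 arrays of 24 and 2 hr, which involve no saline array, 5550 of 34760 probes (16%) were called, 9.3% higher and 6.67% lower at 24 hr. Both comparisons use the same E3 2 hr arrays, on which the genes were chosen, so their values are given side by side. The change from 2 to 24 hr ran from -7.60 to -3.40 among the 15 genes with the largest rises and from 2.73 to 5.03 among the 15 with the largest falls. *Fos* stood at -1.68, -1.97 and -1.33 at 24 hr, below every 2 hr value and above every saline value. *Has1* stood at -4.31, -4.55 and -4.53, *Ptgfr* at 0.36, 0.27 and -0.03 and *Rspo3* at -0.30, -0.29 and -0.66. *Krt85* remained between -5.72 and -3.57 and *Klk1b5* between -1.03 and -0.65, each above all 3 saline arrays. The median change from 2 to 24 hr was -2.27 for the AP-1, Egr, Nr4a and SRF list, -0.90 for ribosome assembly, 0.66 for Hox and Sox and 1.5 for mitosis, against 0.16 over all genes. Of the 24 mitotic genes 13 were called higher at 24 hr than at 2 hr and 1, *Mad2l1*, lower.

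**Figure D5:**
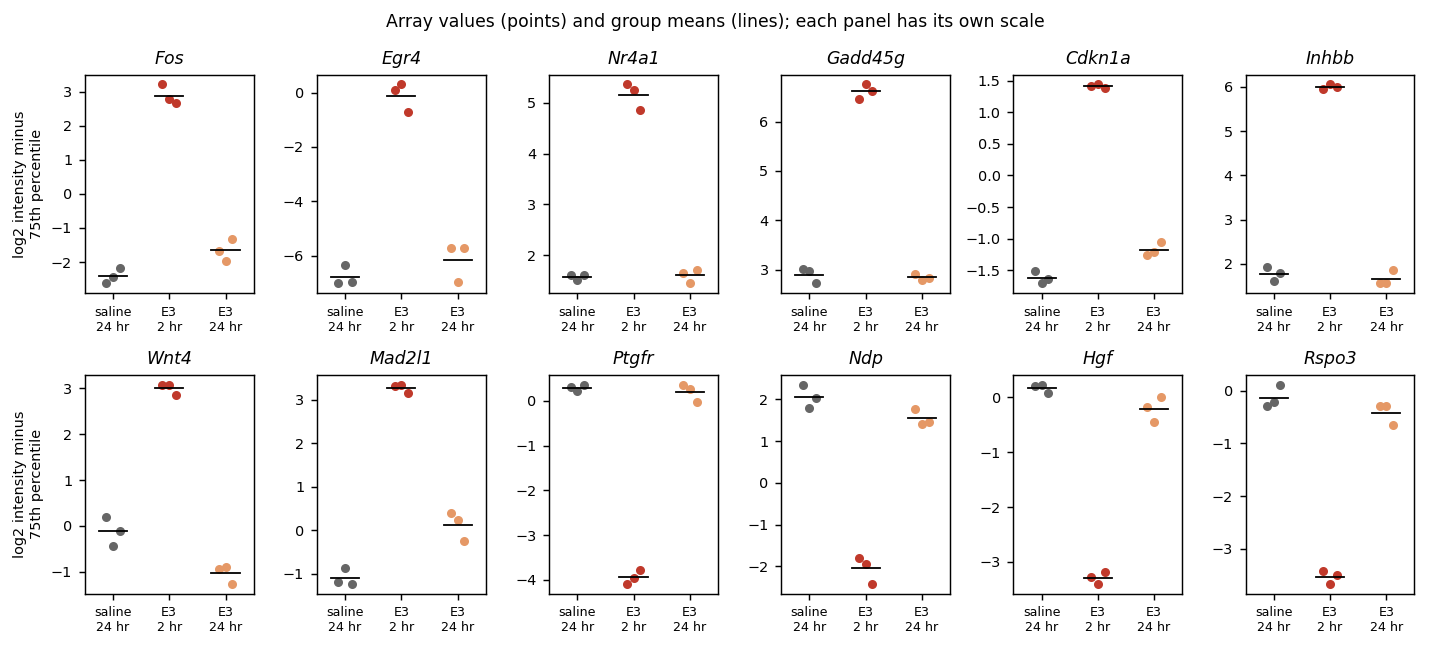
Levels of 12 genes on each array of saline at 24 hr (grey), E3 at 2 hr (red) and E3 at 24 hr (orange), as log2 intensity minus the array's 75th percentile on a scale of its own per panel, with lines at group means. *Fos*, *Egr4*, *Nr4a1*, *Gadd45g*, *Cdkn1a*, *Inhbb*, *Wnt4* and *Mad2l1* are highest at 2 hr, and *Ptgfr*, *Ndp*, *Hgf* and *Rspo3* are lowest at 2 hr.

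Estradiol at the same dose and time was set beside E3 for the 30 genes with the largest changes. The E2 2 hr arrays came from another scanner and slides and carry the strain label C57bl6/Jx129, so these cannot be told apart from the compound, and p-values were adjusted over all 34751 probes tested. The genes were chosen on the same E3 arrays. Over those probes 7.37% were called between the compounds, 1.54% higher and 5.84% lower with E3. None of the 15 rises and 1 of the 15 falls was called. Differences (E3 minus E2) ran from -0.94 to 1.08 among the rises and from -1.65 to 0.72 among the falls. For *Fos* the E2 arrays stood at 3.78, 3.31 and 2.94, and the difference was -0.45 (95% interval -0.95 to 0.05). For *Mylk2* it was -0.01 (-0.48 to 0.46). *Has1* was lower with E3 on every array, with E2 values of 2.46, 1.52 and 1.29 and a difference of -0.94 (-1.42 to -0.46, limma, adjusted p = 0.00492), just short of 2-fold. *Hgf* was less low with E3, with E2 values of -3.77, -4.08 and -3.97 and a difference of 0.65 (0.37 to 0.93, adjusted p = 0.00158). *D230034L24Rik* was the gene called, at -1.65 (-2.20 to -1.10, adjusted p = 0.000297). The widest interval among these genes was that of *Klk1b4*, at 1.08 (-0.62 to 2.79), which includes differences of 2-fold and more.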

How the data were processed

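The authors hybridized amplified, labelled uterine RNA to Agilent mouse arrays and deposited 1 scanner file per array, made with Feature Extraction 9.5 per the submitters' processing notes. The deposited processed intensity is on a linear scale, with background already subtracted, and the deposited value table holds the same intensity for every spot (largest relative difference 0).

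Control spots, and 1893 spots marked as outliers, were left out and spots of one probe averaged, giving 41174 probes. Each array was set to log2 intensity minus its 75th percentile (2844.54 to 4186.88 intensity units). A probe was tested if 2 or more of any group's arrays read it well above background (34760). limma 3.58.1 (R 4.3.3) fitted 5 group means to all 15 arrays, with 10 residual and 2.06 prior degrees of freedom. Probes were named through RefSeq (GRCm38.p6) by accession for 22951 probes, by name for 9768 and as in the file for 1881. On data simulated for E3 2 hr against saline, with 200 of 34296 probes changed 3- to 8-fold, 93% were called, none with a wrong sign, beside 9 false calls.

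The comparison, gene lists and tests were chosen with earlier results of these data known. Genes named are the 15 largest rises and 15 largest falls (called, called again without each array and with slide as a block, measurable in both groups, not overlapping, with a symbol, not a marker of another tissue), 5 bounds each way, the genes the study measured, and the 3 called genes of smallest p per list and direction. Other genes were named after their values were seen. Alternatives were other scalings, backgrounds, filters and thresholds, slide and replicate blocks, and omitted arrays.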

Additional observations from a re-analysis of the deposited data

Results flagged for a closer look

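Every gene with one of the largest changes at 2 hr also differed between E3 at 24 hr and E3 at 2 hr by limma over all 15 arrays. Both comparisons use the E3 2 hr arrays on which these genes were chosen, so the values are a description. Among the rises, the log2 difference (24 hr minus 2 hr) was -7.60 for *Krt85*, -7.39 for *Krt86*, -7.34 for *Krt87* and -3.40 for *Krt4*. Among the kallikreins it was -4.73 for *Klk1b5*, -4.80 for *Klk1b4*, -4.80 for *Klk1b3* and -4.47 for *Klk1b8*. It was -6.04 for *Egr4*, -4.55 for *Fos* and -5.64 for *Arc*, and -5.42 for *Gdf15*, -5.50 for *Pgf*, -5.28 for *Has1* and -4.96 for *Mylk2*. Among the falls it was 4.15 for *Ptgfr*, 3.60 for *Ndp*, 3.08 for *Hgf*, 3.11 for *Rspo3*, 2.95 for *Msc*, 3.39 for *Hcar1*, 3.34 for *Slco4c1*, 3.88 for *Pabpc4l* and 3.12 for *Saxo1*. The clone-named transcripts gave 4.07 for *B130024G19Rik*, 3.18 for *A130013F12Rik*, 5.03 for *LOC244911*, 2.73 for *AI854703*, 2.78 for *2700046A07Rik* and 2.97 for *D230034L24Rik*.

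Transcripts of tissues other than uterus exceeded every saline array. The pancreas list summed to 1520 times the 75th percentile on E3 replicate 2 and 29.5 on E3 replicate 3, and the lymphocyte list to 160 on E3 replicate 3. Of the 57 probes at least 8-fold above the other 5 arrays on E3 replicate 2, 33 belonged to the pancreas list.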

How the results depend on the processing

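The 4746 calls became 2290 (985 higher, 1305 lower) with normexp background correction and 10367 (4185 higher, 6182 lower) without the fold limit. For E3 at 24 against 2 hr, 5550 calls became 3244 and 12080, and for E3 against E2 at 2 hr, 2562 (534 higher, 2028 lower) became 774 and 7865. Leaving out each array in turn gave 4409 to 4653, 5135 to 5568 and 2203 to 2660 calls for the 3 comparisons. Quantile scaling gave 4440 calls, of which 1932 were higher and 2508 lower. Replicate numbers did not pair the arrays, since same-numbered deviations correlated at 0.262, -0.134 and -0.397, and with the replicate block the calls were 3497, 4364 and 1553. Slide as a fixed block left 4137 calls and could not be fitted where groups share no slide. In fits without E3 replicates 2 and 3 the remaining array was assumed to vary like the other groups. Of 179 called genes followed by name, at most 22 lost their call under any alternative (normexp) and none reversed. *Manf*, *Xbp1* and *Krt20* lost it most often. Over all alternatives 138 values of list counts moved and 1702 did not, and 107 of list medians moved and 813 did not. The Hox and Sox genes called lower were 13 with normexp, and their median was -0.65 without E3 replicates 2 and 3, and the median of the MAP kinase feedback list, near 0, ran from -0.04 to 0.14. *Mvp*, uncalled at 0.06, ran from -0.03 (without E3 replicate 3) and -0.02 (without saline replicate 1) to 0.17 over omitted arrays, and went to 0 (quantile) and -0.14 (without E3 replicates 2 and 3), and *Tnxb*, uncalled at 0.05, to -0.05 (quantile), -0.02 (slide block) and, over omitted arrays, -0.03 (without saline replicate 1) to 0.1. The causes were not tested. Probes near background have only bounds.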

Other observations

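Among Klf, Id, Myc and C/EBP factors 5 of 33 (15.2%) were higher and 3 (9.09%) lower at 2 hr, against 4.72% and 7.27% of all genes. *Cebpb*, a factor needed for the stromal response to estrogen, stood at 3.1, 2.91 and 2.95 on saline and at 5.36, 5.29 and 5.30 on E3, and *Klf4* rose by 1.75 ± 0.14 (SE, n = 3 arrays per group). *Klf15* fell by 1.93 ± 0.23 and *Id2* by 1.22 ± 0.16. Of 25 genes of protein folding in the endoplasmic reticulum only *Xbp1* (1.02 ± 0.18) and *Manf* (1.13 ± 0.25) were called higher (8%), both calls being lost when an array was left out and with slide as a block.

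None of 26 genes on a list of epithelial secreted proteins was called at 2 hr, against 4.72% higher and 7.27% lower over all genes. Lactoferrin *Ltf*, a classical late estrogen target, stood at 1.62, 1.71 and 1.72 on saline and at 0.95, 2.05 and 1.86 on E3, and complement *C3* at 5.73, 6.15 and 5.45 and at 5.55, 5.88 and 6.49, with overlapping groups for both. Of the same 26 genes, 8 were called higher at 24 hr than at 2 hr after E3 and none lower, against 1788 and 1058 of all 18290 tested genes.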
